A study of Mus musculus with 7 samples.

Results

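Genes of mouse chromosome 1 were followed along the chromosome in RNA-seq counts from 7 lymphoma cell lines, to place where the genes of its distal part depart from those of its proximal part. The members were the chromosome 1 genes with at least 0.5 CPM (reads counted for a gene, relative to all reads of its library) in 3 or more libraries, without 9 that passed this filter but were left out by name. They numbered 657 of the 12303 genes tested in the whole series, out of 1370 chromosome 1 genes in the count tables, of which 942 had at least 1 count. Of the genes nearest to the filter, Ren1, Lct and Ica1l were kept, with 0.532 to 0.551 CPM or more in 3 libraries, and Rnf152, F5 and Tfcp2l1 were not, with 0.492 CPM as the highest level that 3 libraries reached.

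The lines were grown from end-stage lymphomas of C57BL/6 male mice, all of which carried the Eµ-Myc transgene, in which an immunoglobulin heavy chain enhancer drives Myc in B lineage cells. The 3 wild-type lines had intact Smchd1, and the 4 Smchd1 null lines were homozygous for a mutant allele that the labels call a gene trap and the methods of the study name Smchd1 MD1. The comparison asks what loss of SMCHD1, a chromatin protein of the SMC family that acts in X inactivation and at clustered and imprinted genes, does to expression in these tumours. The age of the mice was not given, each line came from an outgrown tumour, and nothing in the labels says that lines of a group came from separate animals, so that p-values here measure only the spread between these samples.

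Chromosome 1 is the longest mouse chromosome, and its genes serve unrelated pathways, so that most pairs of its genes share nothing but the chromosome. Tumour cells often gain or lose chromosomes or chromosome arms. Such a change alters the gene dose of every gene in the stretch, whatever its function, and the RNA of many of these genes follows the dose. DNA was not analysed here, and copy number was not tested.

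Total counts ran from 3626853 to 7519549 per library, and the level given by 3 counts ran from 0.399 to 0.827 CPM. Smchd1 itself was at 231.8 ± 9.88 CPM in wild-type (SD, n = 3) and 26.59 ± 2.80 CPM in Smchd1 null samples (SD, n = 4), with no overlap. The 4 T cell markers were at 0.391 CPM or less in every library, and the 7 B cell markers summed to 1092 to 2136 CPM in 6 libraries but to 462.4 CPM in Smchd1 null replicate 4. The 3 endothelial markers summed to 215.3 CPM in that library, nearly all from Pecam1, and to 46.28 to 98.12 CPM elsewhere, with Kdr at 0 in every library. The 3 myeloid markers summed to 26.26 CPM in Smchd1 null replicate 2 and to 0.303 to 12.28 CPM in the others. The B cell marker Ms4a1 was at 0.781 CPM or less in 6 libraries and at 13 CPM in Smchd1 null replicate 3. In lines of this kind, fewer cells of a type and less RNA per cell cannot be told apart. Wild-type replicates 2 and 3 resembled each other more than any other pair, with a chi-square statistic per gene of 3.8 against 16.82 to 66.48 for the other pairs. Both were kept as separate samples, as labelled, and whether they come from related tumours is not given. Wild-type replicate 1 was the only library of batch 1 and of single-end reads; the other 6 were paired-end libraries of batch 2.

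For each gene and library a deviation was computed as the log2 CPM in that library minus the median log2 CPM of the 7 libraries. The genes were then ordered by start, and the division was found that left the smallest summed absolute difference of the deviations from the median of their side. Proximal and distal genes were therefore chosen by the deviations in wild-type replicate 3, the library with the strongest division, and the deviations are given as a description with no test. The division fell between Pam and Pign, and left 307 proximal and 350 distal genes.

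In mm10 coordinates, Pam lies at chr1:97821091-98095853 and encodes an enzyme that amidates secreted peptides. Pign lies at chr1:105518421-105663741 and encodes an enzyme of the endoplasmic reticulum that modifies glycosylphosphatidylinositol anchors. The 7.423 Mb between them hold 8 genes of the count tables, of which 3 had a count and none passed the filter. The start of the shift can be placed no more finely than this stretch by expression, and its placement there is itself uncertain. In wild-type replicate 3, divisions from 97.64 to 119.5 Mb kept at least 95% of the fall in the summed difference. The division moved to 127.2 Mb without a filter and to 131.3 Mb with a least squares criterion.

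The 250 bases before a transcript start are printed for Pam and Pign, the genes beside the division, and for Kdm5b. Kdm5b lies away from the division. It was added as the distal gene that limma with and without sample weights, edgeR and DESeq2 all called between the groups. The sequences and the transcript starts are from the RefSeq promoter table on GRCm38.p6, the build of mm10. The gene spans given above reach farther out than these starts, so that 207 bases of the Pam window and 65 of the Pign window lie inside the span of the gene, and 0 of the Kdm5b window. Capitals mark matches, on either strand, to any of 3 motifs that were searched for. These were the E-box CACGTG, bound by MYC and its partners, the palindrome CTCGCGAG, and the CCAAT box, whose letters CCAAT read ATTGG on the other strand. No motif contains another.
Pam, chr1:98095647-98095896, minus strand: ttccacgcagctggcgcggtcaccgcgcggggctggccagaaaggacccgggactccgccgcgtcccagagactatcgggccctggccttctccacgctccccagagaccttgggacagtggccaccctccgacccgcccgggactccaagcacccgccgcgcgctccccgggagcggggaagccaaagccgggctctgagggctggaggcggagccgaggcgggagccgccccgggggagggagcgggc
Pign, chr1:105663677-105663926, minus strand: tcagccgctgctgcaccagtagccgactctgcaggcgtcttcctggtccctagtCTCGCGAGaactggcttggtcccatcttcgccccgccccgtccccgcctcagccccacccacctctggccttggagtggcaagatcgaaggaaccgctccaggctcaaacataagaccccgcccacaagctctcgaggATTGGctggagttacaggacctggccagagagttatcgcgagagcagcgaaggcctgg
Kdm5b, chr1:134559928-134560177, plus strand: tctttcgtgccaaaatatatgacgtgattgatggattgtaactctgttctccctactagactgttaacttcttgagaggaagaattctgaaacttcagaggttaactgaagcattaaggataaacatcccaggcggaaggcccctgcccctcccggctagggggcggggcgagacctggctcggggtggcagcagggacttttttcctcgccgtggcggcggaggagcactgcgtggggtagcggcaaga

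The 3 windows held 75.6% (Pam), 63.2% (Pign) and 54.4% (Kdm5b) G and C. Only that of Pign had matches, 1 to CTCGCGAG and 1 to the CCAAT box. Relch, the next distal gene, starts on the opposite strand, 185 bases from the start of Pign in the same table. A window was found for 240 of the 307 proximal and 299 of the 350 distal genes. The E-box was in 24 proximal (10%), 26 distal (8.7%) and 6.05% of all 27025 windows. The CCAAT box was in 32.5% of the proximal, 39.5% of the distal and 34.5% of all windows, and CTCGCGAG in 2 proximal (0.833%), 5 distal (1.67%) and 211 (0.781%) of all. The median G and C content was 62.4% in proximal and 59.2% in distal windows but 52.0% over all windows, so the background differs from the members in base content. The differences between these shares were not tested.

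Distal genes were higher in wild-type replicates 2 and 3 and in none of the other libraries. The median distal deviation was 0.35 in wild-type replicate 2 and 0.36 in wild-type replicate 3. It was -0.06 in wild-type replicate 1. In Smchd1 null replicates 1 to 4 it was 0.00, -0.07, -0.07 and -0.03. Proximal medians lay between -0.01 and 0.03 in all 7 libraries. The groups overlapped, since wild-type replicate 1 lay inside the range of the Smchd1 null samples for the distal median. The difference of distal and proximal medians was 0.21 ± 0.26 in wild-type (SD, n = 3) and -0.05 ± 0.03 in Smchd1 null samples (SD, n = 4). The wild-type SD is wide because 2 of the 3 wild-type libraries carried the shift.

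**Figure D1:**
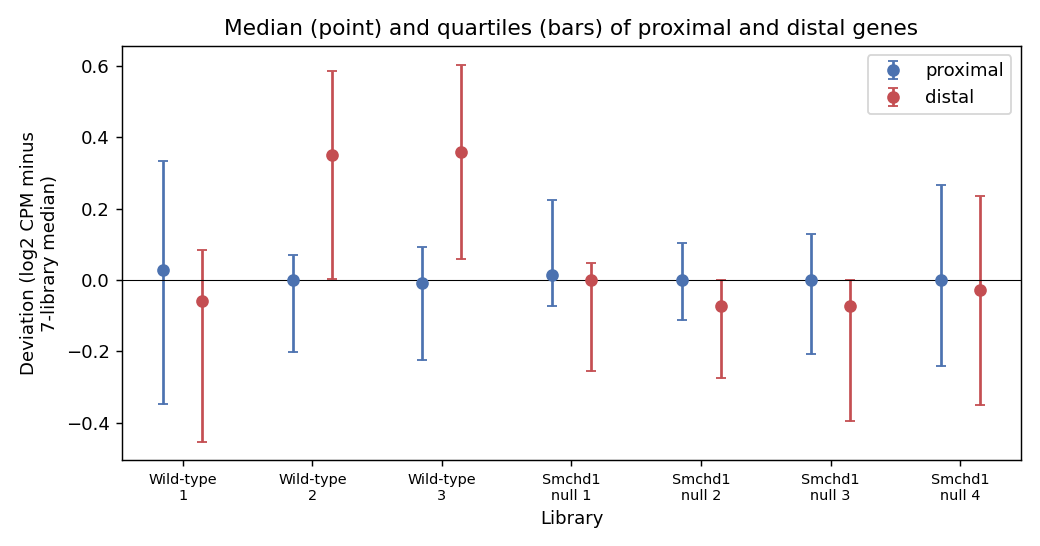
The vertical axis gives the deviation, log2 CPM minus the median of the 7 libraries, for each library on the horizontal axis. Points are medians and bars run from the lower to the upper quartile of the 307 proximal (blue) and 350 distal (red) genes. The distal medians of wild-type replicates 2 and 3, at 0.35 and 0.36, stand apart from the other 5, which lie between -0.07 and 0.00.

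As a ratio, the distal minus proximal difference was 1.28-fold in wild-type replicate 2 and 1.29-fold in wild-type replicate 3. Both libraries enter the 7-library median and pull it toward themselves. Taken instead against the median of the 4 Smchd1 null samples, an alternative chosen after the data were seen, the difference was 0.55 in both (1.47-fold) and -0.08 in wild-type replicate 1. With that reference, 84.0% and 84.3% of distal genes lay above 0 in wild-type replicates 2 and 3, against 47.1% in wild-type replicate 1, and the corresponding proximal shares were 41.0%, 39.7% and 53.1%.

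The shift was spread over the distal genes rather than carried by a few of them. Against the 7-library median, 75.7% and 79.1% of distal genes lay above 0 in wild-type replicates 2 and 3, and 22.6% to 36.3% did so in the other 5 libraries. A gene was above 0 in both of these libraries for 235 of the 350 distal genes (67.1%), 54 of the 307 proximal genes (17.6%) and 24.9% of the genes on other chromosomes or left out. Both were the highest pair of the 7 for 158 distal genes (45.1%), 23 proximal genes (7.49%) and 11.5% of the rest. In contrast, 21 distal genes (6.0%) lay below 0 in both.

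The shift was also expressed as shares of counts. The sides were chosen from these same counts, so the shares describe the shift in another unit and are no separate test of it. Distal members took 3.619% of all counts in wild-type replicate 2 (95% Wilson interval 3.604 to 3.634) and 3.563% in wild-type replicate 3 (3.549 to 3.577). They took 2.804% in wild-type replicate 1 (2.787 to 2.821) and 2.648% to 2.749% in the Smchd1 null libraries. These intervals cover counting error only. Distal counts were 1.36 and 1.383 times the proximal counts in wild-type replicates 2 and 3, 0.981 times in wild-type replicate 1, and 0.916 to 0.995 times in the Smchd1 null libraries. Over the groups this ratio was 1.24 ± 0.23 (SD, n = 3) and 0.954 ± 0.038 (SD, n = 4).

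Along the chromosome the deviations were higher after the gap, where the division was placed from these same values, and stayed up to the end. In the last 5 Mb window before the gap, 95 to 100 Mb, the medians of its 6 genes were -0.23 in wild-type replicate 2 and -0.21 in wild-type replicate 3. This small window was lower than its surroundings, since the 37 genes of 90 to 100 Mb had medians of -0.03 and -0.02. In the first 5 Mb window after the gap, 105 to 110 Mb, the medians of its 9 genes were 0.45 in both. In windows of 10 Mb from 110 Mb on, the medians ranged from 0.16 to 0.52 in wild-type replicate 2 and from 0.18 to 0.45 in wild-type replicate 3. The 180 to 190 Mb window held the highest median of the 10 Mb windows in wild-type replicate 2, 0.52 over 43 genes, and the second highest in wild-type replicate 3, 0.45. The only windows of 5 Mb after the gap with a median at or below 0 in either library held 1 gene (110 to 115 Mb, at -2.27 and -3.09) and 3 genes (195 to 200 Mb, at 0.00 and 1.06). Near the far end, the 27 genes of 190 to 195 Mb were at 0.17 and 0.26. In the 5 Mb windows of at least 20 genes, the medians of the other 5 libraries ran from -0.43 (wild-type replicate 1, 75 to 80 Mb) to 0.28 (Smchd1 null replicate 4, 190 to 195 Mb), and windows of fewer genes went farther.

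**Figure D2:**
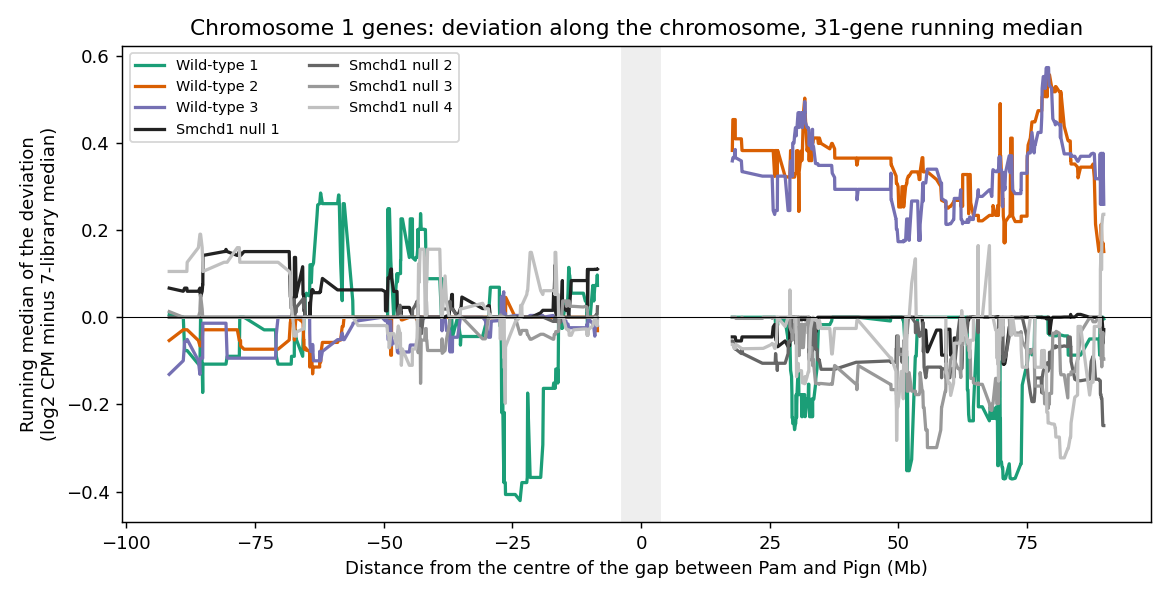
The horizontal axis gives the distance of a gene's start from the centre of the gap between Pam and Pign in Mb, negative for proximal genes, and the vertical axis the running median of the deviation over 31 genes, taken on each side of the gap (shaded) on its own; lines end 15 genes from each edge. Wild-type replicates 2 and 3 run near 0 on the left and above all other libraries over most of the right side.

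Wild-type replicate 2 entered the choice of the sides only through the 7-library median, and its own best division fell between the same 2 genes. The division lowered the summed absolute difference by 11.4% in wild-type replicate 3 and 10.76% in wild-type replicate 2. In the other 5 libraries the best division of chromosome 1 lowered it by 0.269% to 1.414% and fell elsewhere. Among 140 combinations of 7 libraries with 19 autosomes and the X chromosome, these 2 ranked first and second by this fall, ahead of 7.576% and 5.51% for chromosomes 16 and 3 in wild-type replicate 1 and 4.146% for chromosome 10 in wild-type replicate 2. By the absolute difference between the medians of the 2 sides they ranked 5 (wild-type replicate 2) and 4 (wild-type replicate 3), behind -0.58 and 0.46 for chromosomes 3 and 16 in wild-type replicate 1 and -0.37 for chromosome 10 in wild-type replicate 2. Both rankings use the values that chose the sides. A division anywhere from Macir (97.64 Mb) to Ralb (119.5 Mb), 17 places in all, kept at least 95% of the fall in wild-type replicate 3. Since wild-type replicates 2 and 3 resembled each other genome-wide, the second library is not an independent placement.

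**Figure D3:**
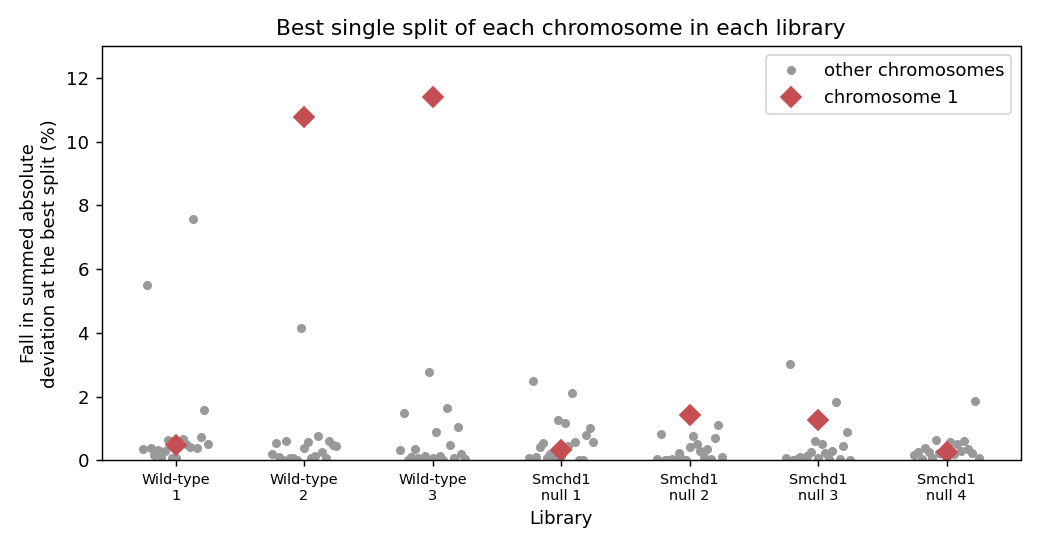
Each point is 1 chromosome in 1 library. The vertical axis gives the percent by which the best single division of the chromosome lowered the summed absolute deviation. Diamonds mark chromosome 1, which reached 10.76% and 11.4% in wild-type replicates 2 and 3 and at most 1.414% in the other 5 libraries.

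The genes on either side of the gap were read one by one. Of the 4 proximal genes, Ppip5k2, which encodes a kinase of inositol pyrophosphates, was at 166.4, 125.1 and 106.9 CPM in wild-type replicates 1 to 3 and at 141.0, 147.5, 150.3 and 111.6 CPM in Smchd1 null replicates 1 to 4. Gin1 was at 21.67, 12.46 and 10.23 CPM in wild-type and at 15.15 to 15.6 CPM in Smchd1 null samples. Macir was at 65.68 to 79.73 CPM and 51.57 to 87.4 CPM. In these 3 genes the groups overlapped, and wild-type replicates 2 and 3 were not raised. Pam was at 0.267, 0.332 and 1.04 CPM in wild-type and at 5.61, 5.79, 2.82 and 11.2 CPM in Smchd1 null samples, with no overlap.

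Of the 4 distal genes, Relch, whose product acts in recycling endosomes, was at 28.09, 60.15 and 58.56 CPM in wild-type and at 33.17, 34.59, 39.85 and 34.9 CPM in Smchd1 null samples. Wild-type replicates 2 and 3 stood above the rest, and wild-type replicate 1 below. Pign was at 37.45, 41.87 and 39.88 CPM in wild-type and at 19.24, 22.2, 20.87 and 32.69 CPM in Smchd1 null samples. All 3 wild-type libraries were above all 4 Smchd1 null libraries for this gene. The strand setting of the counting was not given, so reads where Pign and Relch lie close cannot be told apart. Gm10193 and Gm7160, the next distal genes, have names that RefSeq gives to predicted genes and are short, and their counts are uncertain where copies exist. Gm10193 was at 44.95 to 76.76 CPM in wild-type and 84.39 to 101.5 CPM in Smchd1 null samples. Gm7160 was at 1.07 to 2.49 CPM and 0.261 to 1.29 CPM.

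The shift was present at every level of expression, and was smaller for the lowest class in wild-type replicate 2. With the distal genes cut into 3 classes of equal size by mean log2 CPM, the medians of wild-type replicate 3 were 0.36 in the lowest class, 0.37 in the middle and 0.34 in the highest. In wild-type replicate 2 they were 0.20, 0.38 and 0.36. By gene length, the 117 shortest distal genes had medians of 0.17 and 0.26 in wild-type replicates 2 and 3, and the 116 of middle length 0.38 and 0.39. In the matching classes of proximal genes every median of these 2 libraries lay between -0.10 and 0.00.

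Smchd1 null and wild-type samples were then compared gene by gene in a fit over all 12303 genes with limma (voom with sample weights), in which genes with a false discovery rate (FDR) under 0.05 are called differentially expressed (DE). In this fit 109 of the 350 distal genes were DE and lower in Smchd1 null samples (31.1%), beside 6.85% of all genes tested, and 5 were higher (1.43%), beside 5.06% of all genes. Of the 307 proximal genes, 9 were lower (2.93%) and 19 higher (6.19%). The median log2 fold change was -0.48 over distal genes, 0.07 over proximal genes and -0.01 over all genes. The fit used the same libraries that placed the division and gave weights of 3.78 and 3.06 to wild-type replicates 2 and 3 and of 0.246 to wild-type replicate 1, so nothing is read from the excess of distal calls. Without wild-type replicate 1, and so within batch 2, there were 146 distal calls (42.1%), beside 1641 calls over the 12058 genes tested. Without wild-type replicate 2, or without wild-type replicate 3, there were 0 distal and 0 proximal DE genes in limma with sample weights and in voom alone. Each of these fits called 1 gene in all, of 12125 and 12079 tested, so calls were lost over all genes and not on chromosome 1 alone. At an unadjusted p under 0.05 the weighted fit without wild-type replicate 2 had 33 distal (9.65%) and 9 proximal genes (2.94%), beside 5.73% of all genes. Without wild-type replicate 3 it had 36 (10.5%) and 12 (3.93%), beside 6.14%. The distal median log2 fold change was -0.22 in either case.

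The calls also rested on the weights. Voom alone called 1 distal gene, Kdm5b, and no proximal gene, beside 0.0975% of all genes tested, and edgeR called the same number on each side. At an unadjusted p under 0.05, voom alone had 83 distal genes (23.7%) and 29 proximal genes (9.45%), beside 11.3% of all genes. DESeq2 called 21 distal (6.0%) and 13 proximal genes (4.23%), beside 3.29% of all genes tested. Fully separated groups, with every Smchd1 null sample below every wild-type sample, occurred in 58 distal genes (16.6%) and 16 proximal genes (5.21%), beside 6.49% of all genes. The opposite order occurred in 8 distal (2.29%) and 25 proximal genes (8.14%), beside 6.72% of all genes.

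**Figure D4:**
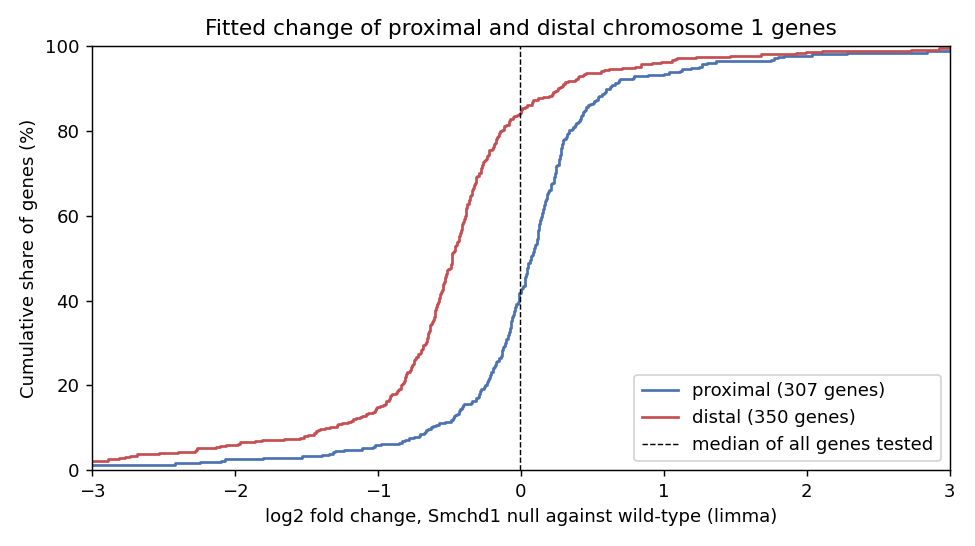
The horizontal axis gives the limma log2 fold change, Smchd1 null against wild-type, and the vertical axis the cumulative percent of the 307 proximal (blue) and 350 distal (red) genes at or below it; values beyond 3 in either direction are not shown. The distal curve lies to the left, with a median of -0.48 against 0.07 for proximal genes, and the dashed line marks the median of all genes tested, -0.01.

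Most distal changes were small. The 109 lower genes had a median log2 fold change of -0.66, with quartiles of -0.82 and -0.56, and 18 of them were beyond -1. In 46 of the 109 the groups did not overlap. The 19 proximal genes that were higher had a median of 0.63, and the 5 higher distal genes a median of 4.84.

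Distal DE genes fell in several functional lists. The lists were chosen with earlier results of these data known and are described by counts in limma with sample weights, to be read beside the 6.85% of all genes and 31.1% of distal genes that were lower. Voom alone and edgeR called 0 members of any list, and unadjusted counts are given below where the weighted fit also called 0. All 4 distal genes of DNA replication and repair were lower in Smchd1 null samples, namely Mcm6, Exo1, Parp1 and Dtl, by log2 fold changes from -0.47 to -0.76. Of these 4, DESeq2 called 2 and edgeR 0, with 3 at an unadjusted p under 0.05 in edgeR. Of 9 proximal genes of that list 0 were DE in limma with sample weights, voom alone, edgeR and DESeq2, 1 had an unadjusted p under 0.05 in limma, and their median was 0.18. Mcm6, a subunit of the replicative helicase, was at 654.7, 644.7 and 641.2 CPM in wild-type and at 422.3, 432.4, 562.5 and 573.4 CPM in Smchd1 null samples. These groups did not overlap, and the log2 fold change was -0.47 (SE 0.11, limma FDR = 0.03025). Its 3 wild-type values lay within 2.1% of each other, so the distal shift of wild-type replicates 2 and 3 was not seen for this gene against wild-type replicate 1. Its proximal partner in the same helicase, Mcm3, was at 469.5, 458.9 and 428.3 CPM and at 433.4, 418.9, 565.5 and 493.6 CPM, and the groups overlapped (log2 fold change 0.04, limma FDR = 0.8454). Parp1, which binds DNA breaks, was at 911.0, 1094 and 1079 CPM and at 659.8, 665.1, 911.0 and 933.3 CPM, a log2 fold change of -0.57 (SE 0.12, limma FDR = 0.02429) with overlap through wild-type replicate 1.

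The mitosis list held 11 genes, all distal. Their place follows from the choice of the list, which gives no proximal genes to compare. In limma with sample weights 7 of the 11 were lower: Aspm, Kif14, Cenpf, Ahctf1, Clasp1, Nek7 and Ube2t, by -0.38 to -0.81 on the log2 scale. DESeq2 called 2 of the 11 and edgeR 0, with 4 at an unadjusted p under 0.05 in edgeR. The median deviations of the 11 were 0.47 and 0.42 in wild-type replicates 2 and 3. Ahctf1, needed to rebuild nuclear pores after mitosis, was at 413.6, 473.5 and 396.9 CPM in wild-type and at 295.8, 275.1, 265.2 and 239.9 CPM in Smchd1 null samples. These groups were apart (log2 fold change -0.66, SE 0.11, limma FDR = 0.01356), with wild-type replicate 1 as high as the other wild-type libraries. Nek2, a kinase of the centrosome, was at 180.9, 195.6 and 203.9 CPM and at 177.4, 151.1, 193.9 and 121.0 CPM, and Nuf2, a kinetochore protein, at 111.0, 220.0 and 219.4 CPM and at 194.5, 187.1, 135.6 and 105.9 CPM. Neither of these passed the test.

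In the list of the nucleolus, translation and protein folding, 4 of 7 distal genes were lower (Nvl, Dars, Eprs and Iars2, which encode a nucleolar ATPase and tRNA synthetases), and 1 of 9 proximal genes was higher (Rpl31, a ribosomal protein). DESeq2 called 1 of the 7 distal genes and 0 of the 9 proximal genes. By edgeR 0 were called on either side, with 3 distal and 1 proximal at an unadjusted p under 0.05. The most abundant members of the list were proximal. Ncl, the major nucleolar protein nucleolin, was at 4128, 3454 and 2846 CPM in wild-type and at 4681, 4085, 4027 and 3350 CPM in Smchd1 null samples, with overlap and an FDR of 0.07813 (limma). Ptma ranged from 1405 to 2564 CPM and Eef1b2, an elongation factor subunit, from 1078 to 1740 CPM over the 7 libraries, and neither passed the test.

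Of 13 distal genes of chromatin, transcription and splicing, 6 were lower in limma with sample weights (H3f3a, Rnf2, Tpr, Elk4, Lin9 and Zbtb37). DESeq2 and edgeR called 0 of the 13, with 5 and 4 at an unadjusted p under 0.05. Of 6 proximal ones 0 were called by limma, edgeR or DESeq2, with 1 at an unadjusted p under 0.05 in each. The 2 most abundant distal members did not follow the shift. Hnrnpu, an RNA-binding protein, was at 1842, 1681 and 1447 CPM in wild-type and at 1542, 1552, 1794 and 1433 CPM in Smchd1 null samples. Dhx9, a helicase, was at 774.0, 728.3 and 613.0 CPM and at 701.5, 680.8, 740.9 and 643.6 CPM. The splicing factor gene Sf3b1, proximal, ranged from 463.6 to 694.3 CPM, with overlap.

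In the list of p53, survival and growth control, 4 of 6 distal genes were lower, among them Btg2, Phlpp1 and Abl2, and 0 of 4 proximal ones were called by limma, edgeR or DESeq2, with 1 at an unadjusted p under 0.05 in limma. DESeq2 called 1 of the 6 distal genes and edgeR 0, with 3 at an unadjusted p under 0.05 in edgeR. The median deviations of the 6 were 0.55 and 0.57 in wild-type replicates 2 and 3. Btg2, a p53 target that restrains proliferation, was at 168.3, 231.0 and 264.8 CPM in wild-type and at 140.6, 162.5, 162.7 and 151.2 CPM in Smchd1 null samples, with no overlap (log2 fold change -0.64, SE 0.12, limma FDR = 0.01716). Of the metabolism list, DESeq2 and edgeR called 0 genes on either side, with 2 distal ones at an unadjusted p under 0.05 in each. In limma with sample weights 2 of 6 distal genes were lower, among them Bpnt1, and 1 of 7 proximal genes was higher. That gene, Atic, an enzyme of purine synthesis, was at 568.8, 349.1 and 337.1 CPM and at 529.6, 489.4, 534.1 and 472.9 CPM. Its 2 low values were those of wild-type replicates 2 and 3, and the groups overlapped through wild-type replicate 1 (log2 fold change 0.54, limma FDR = 0.0227).

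Of 14 distal lymphocyte genes, 1 was DE and lower in limma with sample weights (Itpkb), beside 6.85% of all genes tested. In that fit the median log2 fold change of the 14 was -0.65, 12 were negative, and 7 had an unadjusted p under 0.05. DESeq2 called 1 of the 14 and edgeR 0, with 2 and 1 at an unadjusted p under 0.05. Of 6 distal interferon-inducible genes 0 were called by limma, edgeR or DESeq2, with 2 at an unadjusted p under 0.05 in limma. Slamf7, a receptor of the SLAM family, was at 374.3, 370.2 and 370.9 CPM in wild-type and at 344.0, 115.2, 394.0 and 62.64 CPM in Smchd1 null samples. Ifi209 was at 56.18, 134.4 and 157.9 CPM and at 140.7, 183.9, 166.8 and 2.73 CPM. The lowest value of each of Slamf7 and Ifi209 was in Smchd1 null replicate 4, the library with low B cell markers, and the part of this library's identity in them was not tested. Mndal and Ifi203, related genes of the same cluster whose counts are uncertain where they share sequence, ranged from 78.39 to 128.5 CPM and from 52.97 to 128.4 CPM.

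Some distal members moved by far more than the shift, in both directions. Kdm5b, an H3K4 demethylase gene, was at 41.47, 51.84 and 57.52 CPM in wild-type and at 3.79, 2.73, 6.75 and 4.56 CPM in Smchd1 null samples. All 3 wild-type libraries were high, and the log2 fold change was -3.80 (SE 0.28, limma FDR = 0.001108; voom alone FDR = 0.0144). Sertad4 was at 93.37, 39.88 and 46.55 CPM and at 0.454, 3.54, 2.04 and 4.56 CPM, with its highest value in wild-type replicate 1 (log2 fold change -4.54, SE 0.59, limma FDR = 0.009116). Psen2, a presenilin gene of the γ-secretase complex, was at 28.63, 44.03 and 64.05 CPM and at 16.66, 15.77, 15.22 and 20.71 CPM, again without overlap (log2 fold change -1.66, SE 0.26, limma FDR = 0.01219). Among distal genes at low levels, Ephx1 was at 2.94 to 3.82 CPM in wild-type and 0.314 to 1.43 CPM in Smchd1 null samples, and Lgr6 at 0.89 to 2.67 CPM and 0 to 0.628 CPM, near the level of 3 counts.

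Rassf5, which encodes a RAS effector that regulates lymphocyte adhesion, went the other way. Wild-type replicate 1 had 70.36 CPM, wild-type replicates 2 and 3 had 1.49 and 0.89 CPM, and the Smchd1 null samples had 76.34, 71.43, 70.76 and 96.38 CPM. Wild-type replicate 1 differed from the lowest Smchd1 null sample by 0.565%, so this gene set wild-type replicates 2 and 3 apart from the other 5 libraries. The limma log2 fold change of 5.75 (SE 0.42, FDR = 0.001108) was 1.74 in edgeR (FDR = 0.6537) and 1.70 in DESeq2 (FDR = 0.6914). Kmo, an enzyme of tryptophan breakdown, was at 4.55, 7.48 and 9.34 CPM in wild-type and at 34.84, 23.97, 48.64 and 25.14 CPM in Smchd1 null samples, with no overlap (log2 fold change 1.92, SE 0.27, limma FDR = 0.01057). Lyplal1 had 0 counts in all 3 wild-type libraries and 15, 9, 26 and 28 counts, 1.45 to 4.08 CPM, in Smchd1 null samples. The 5 distal genes that were higher were these 3 with Dsel and Kifap3, whose groups overlapped. Dsel and Kifap3 are named after their values were seen.

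Other distal genes with extreme deviations differed within both groups. Atf3, a stress response factor gene, was at 0, 29.24 and 28.17 CPM in wild-type and at 7.27, 3.86, 0 and 55.09 CPM in Smchd1 null samples. Tor3a was at 7.76, 31.9 and 31.87 CPM and at 3.03, 9.81, 2.04 and 71.24 CPM, with the highest value in Smchd1 null replicate 4 (log2 fold change -2.40, SE 0.62, limma FDR = 0.04404). The weighted fit gave Smchd1 null replicate 4 a weight of 0.249. The group means of Tor3a were close, 23.85 CPM in wild-type and 21.53 CPM in Smchd1 null samples, and its FDR in voom alone was 0.6919. C4bp was at 0.445 to 0.535 CPM in wild-type, at 1.93 to 4.24 CPM in Smchd1 null replicates 1 to 3 and at 136.0 CPM in Smchd1 null replicate 4. Slamf6 was at 31.84, 15.95 and 14.83 CPM and at 26.2, 20.59, 30.28 and 50.27 CPM. Rbm3-ps, a pseudogene that may share reads with its parent, ranged from 188.4 to 391.3 CPM.

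Proximal genes had large changes too. Those named next were chosen among DE genes whose groups did not overlap, so that all 3 wild-type libraries lie on the same side. Poglut2 and its neighbour Bivm, whose annotated ends lie 77 bases apart, were lower in Smchd1 null samples. Poglut2 was at 47.09, 16.62 and 13.94 CPM in wild-type and at 1.67, 1.29, 2.20 and 4.30 CPM in Smchd1 null samples (log2 fold change -3.14, SE 0.44, limma FDR = 0.01057). Bivm was at 19.53, 7.48 and 5.19 CPM and at 0.151, 0, 0.157 and 2.08 CPM. Arid5a was at 38.26, 34.73 and 39.88 CPM and at 18.63, 25.9, 18.83 and 19.67 CPM (log2 fold change -0.78, SE 0.15, limma FDR = 0.0206). Prkag3, a subunit of AMP-activated kinase, was at 4.82 to 9.80 CPM in wild-type and at most 0.804 CPM in Smchd1 null samples.

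Dock10, an activator of small GTPases, had 1, 0 and 0 counts in wild-type and 31, 127, 189 and 624 counts in Smchd1 null samples, 4.70 to 81.27 CPM. Arl4c likewise had 1, 0 and 0 counts in wild-type and 64, 51, 6 and 17 counts in Smchd1 null samples. Mfsd6 was at 2.14, 2.49 and 3.85 CPM and at 8.18, 17.05, 6.90 and 8.99 CPM (log2 fold change 1.8, SE 0.39, limma FDR = 0.02667). Inpp5d, the lipid phosphatase SHIP1 of B cell signalling, was at 217.8, 110.3 and 118.5 CPM and at 175.4, 152.3, 172.3 and 220.2 CPM. Its groups overlapped, with wild-type replicate 1 beside the highest Smchd1 null library (log2 fold change 0.52, limma FDR = 0.04636).

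**Figure D5:**
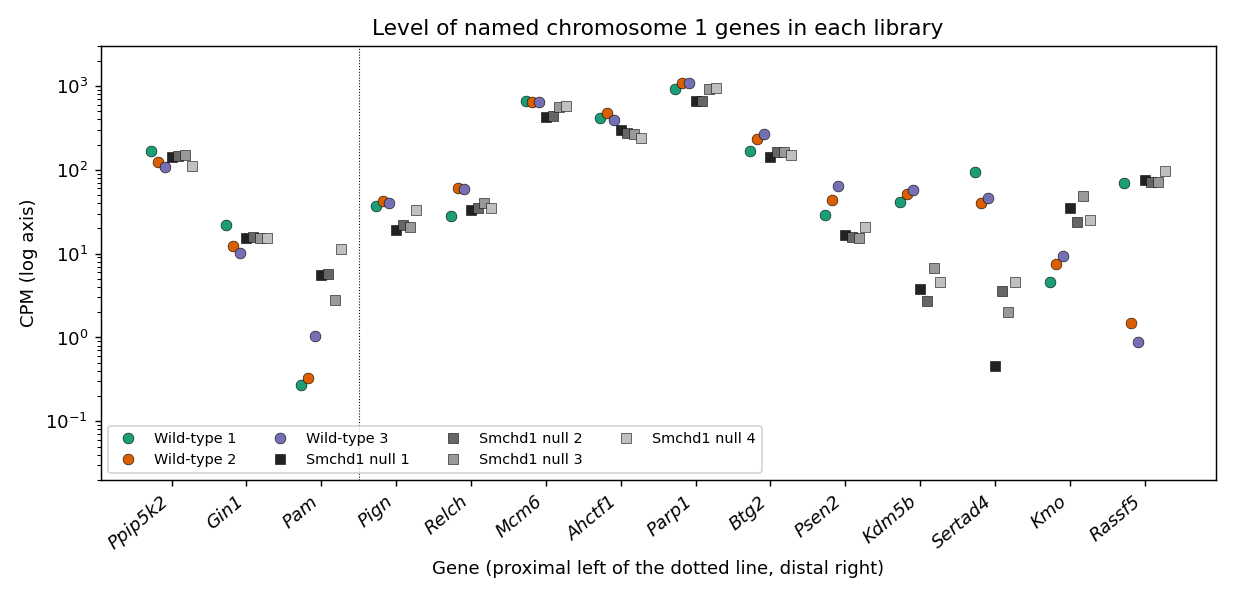
The vertical axis gives CPM on a log scale for 14 named genes on the horizontal axis, proximal to the left and distal to the right of the dotted line; circles are wild-type and squares Smchd1 null libraries. Relch is high in wild-type replicates 2 and 3 alone, Kdm5b in all 3 wild-type libraries (41.47 to 57.52 CPM), and Rassf5 is low in wild-type replicates 2 and 3 alone (1.49 and 0.89 CPM).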

How the data were processed

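RNA-seq of 3 wild-type and 4 Smchd1 null Eµ-Myc lymphoma lines was analysed. The authors aligned reads to mm10 with Subread and summarised them with featureCounts; base calling by CASAVA (version 1.8.2) is named in the submitters' processing notes. The deposited tables held raw counts for 27179 Entrez genes per library, with the gene length, another value the authors deposited. Strand and multi-mapping settings are not given in the sources used here, and affect genes with overlaps or copies. Positions and symbols came from RefSeq (GRCm38.p6), which matched 25275 genes holding 98.24% of counts.

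Genes with at least 0.5 CPM in 3 libraries were kept, and TMM factors and log2 CPM (offset 0.5 counts) computed from the counts. Printed CPM values use TMM-scaled library sizes. Each side of a division held at least 30 genes. Differential expression, without covariates, used voom with sample weights in limma (version 3.58.1; R version 4.3.3) with Benjamini-Hochberg adjustment over all genes; edgeR (version 4.0.16) and DESeq2 (version 1.42.0) served as alternatives, with other weights, filters, scalings, a replicate block and left-out samples. Scripts were tested on simulated data. Replicate numbers came from the labels.

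Members and lists were chosen with earlier results of these data known. Named were the 4 genes on each side of the division, the 3 most abundant of each list, the 5 highest and 5 lowest distal deviations in wild-type replicate 3 at a mean of at least 10 CPM, and, among DE genes with separate groups, the 4 largest changes each way on each side. Older symbols in the lists were matched through RefSeq synonyms. Chromosome 1 genes left out by name are not reported here.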

Additional observations from a re-analysis of the deposited data

Results flagged for a closer look

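Among 57 values screened in the 4 Smchd1 null samples (5 summaries of the sides and 52 named genes), 3 had a sample far from the other 3 by Dixon's criterion, and chance flags about 5% of such groups. Gm7160 was at a log2 CPM of -1.62 in Smchd1 null replicate 4 and at 0.36 to 0.45 in the others, with 2 counts against 8 in each. Ifi209 was at 1.49 in Smchd1 null replicate 4 and at 7.14 to 7.52 in the others. Arid5a was at 4.70 in Smchd1 null replicate 2 and at 4.23 to 4.30 in the others, still below every wild-type sample. No summary of the proximal or distal side was far from the others in any Smchd1 null sample.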

How the results depend on the processing

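The division in wild-type replicate 3 stayed at 105.5 Mb, or at 106.2 Mb with at least 10 counts in every sample, under every scaling, offset and reference tried; without a filter it moved to 127.2 Mb, and with a least squares criterion to 131.3 Mb. In wild-type replicate 2 it stayed at 105.5 Mb in every setting but that without a filter, 98.03 Mb. With the reference taken without each other sample in turn, the first distal gene of wild-type replicate 3 stayed at 105.5 Mb, and its distal minus proximal difference was 0.33 to 0.46. This difference of wild-type replicate 3 was 0.37 as reported, 0.35 to 0.50 under the other settings, and 0.55 against the Smchd1 null median.

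The 114 distal and 28 proximal DE genes became 1 and 0 in voom alone, 53 and 6 with block weights, 62 and 8 after sample removal, 1 and 0 in edgeR, and 21 and 13 in DESeq2. Calls over all genes tested fell alongside, from 1466 to 12, 493, 521, 12 and 384 in the same order. Leaving out a sample gave 0 to 146 distal and 0 to 30 proximal DE genes with sample weights, and 0 to 2 and 0 to 0 with voom alone. Over all genes these fits called 1 to 1641 with sample weights and 1 to 29 with voom alone. Without wild-type replicate 2 or 3 none of the 25 named DE genes stayed DE. Without Smchd1 null replicates 1, 2 and 3 the distal counts were 45, 21 and 74 and the proximal counts 9, 10 and 18, beside 517, 332 and 1017 over all genes. No named gene that was DE turned its direction. The cause of these changes was not tested.

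With the replicate number as a replicate block the distal and proximal counts were 12 and 6, beside 222 over all genes. The numbers do not pair the samples: deviations of samples with the same number correlated by -0.05 on average (-0.21 to 0.22), and of those with different numbers by 0.02.

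Depth limits genes near 3 counts, 0.399 to 0.827 CPM. Batch 1 holds 1 wild-type sample, so batch and read layout cannot be told apart there from that line. DNA copy number was not measured, and the 2 libraries with the shift are wild-type, so the shift enters the comparison of the groups.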
